A study of Mus musculus with 8 samples.

Results

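Integrins are cell surface receptors made of 1 alpha and 1 beta chain, and laminins are basement membrane proteins made of 1 alpha, 1 beta and 1 gamma chain. The genes described here have symbols that name an integrin alpha chain, an integrin beta chain or a laminin chain in the count table. They numbered 36 of 25413 genes, with 26 integrin and 10 laminin chains. Of the 36, 35 had a count in at least 1 library and 25 passed the filter on low counts that 13716 of all genes passed. Itga4 had 0 counts in all 8 libraries.

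Polyadenylated RNA was sequenced from spheroids, which are rounded cell aggregates grown in culture, of the mouse mammary lines EpH4 and EpH4-AS. The 4 groups, with 2 libraries each, were EpH4-AS exposed to PM2.5, EpH4-AS left untreated, EpH4 exposed to PM2.5 and EpH4 left untreated, and the libraries of a group are numbered 1 and 2 as in the labels. The labels call the genotype of EpH4-AS AS-transformed and the design text calls it malignantly transformed, while EpH4 is the wildtype. PM2.5 is fine airborne particulate matter, whose dose and exposure time the labels do not state. Each line is 1 cell line in culture, so a difference between them is a difference between these cultures. Nothing in the labels tells if the libraries within a group are from different cultures. The p-values therefore rest on a library-to-library spread that may be only technical.

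In epithelia, the integrin alpha 6 and beta 4 chains form a receptor that sits in hemidesmosomes, the junctions that tie the keratin cytoskeleton to the basement membrane. Its main ligand is a laminin that holds the Lama3 and Lamb3 chains. Most other alpha chains pair with beta 1, and the heterodimers divide into receptors for laminin, for collagen, for ligands with an RGD motif such as fibronectin, and receptors of leukocytes. In the mammary gland, laminin in the basement membrane and its integrin receptors are known for the polarity and survival of the epithelium.

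Total counts per library were 15393256 to 18334052 in EpH4-AS and 24608176 to 27765982 in EpH4. The share of counts from mitochondrially encoded transcripts was 0.2697% and 0.302% in exposed EpH4-AS libraries and 0.219% and 0.246% in untreated ones. It was 4.23% and 5.03% in exposed EpH4 libraries and 2.72% and 2.21% in untreated ones. The labelled identity of both lines, mammary epithelium, was checked against markers. The 10 luminal epithelial markers summed to 0.473 to 2.66 CPM per library, and the keratin Krt19 had 0 counts in every library, with Krt8, Krt18 and the cadherin Cdh1 at 0.493 CPM or less in each. The 7 basal markers summed to 2.57 to 9.78 CPM. The 10 mesenchymal markers summed to 6596 to 7398 CPM in EpH4-AS and 14007 to 15935 CPM in EpH4. Fn1 took most of the EpH4 sum, at 2111 to 3345 CPM in EpH4-AS and 10092 to 12084 CPM in EpH4. Of the others, Vim, Zeb1 and Twist1 were higher in each EpH4-AS library than in each EpH4 library. Cdh2, Pdgfra, Pdgfrb, Col1a1, Col1a2 and Thy1 were, like Fn1, lower in each EpH4-AS library than in each EpH4 library. Untreated, the mean of Cdh2 was 5.04 CPM in EpH4-AS and 146 CPM in EpH4, and that of Col1a2 was 34.4 and 1067 CPM. The defining luminal markers were nearly absent from both lines. CPM here are counts brought to the same library size by TMM scaling, a normalization that sets the bulk of genes level between libraries.

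The 250 bases before the annotated start were read for 23 of the 36 genes, as 26 windows from RefSeq on GRCm38.p6. The laminin alpha chains Lama2 and Lama5 are shown because both were far higher in EpH4-AS than in EpH4, in the comparisons of lines given further on. Both windows lie on the minus strand and are printed 5′ to 3′, Lama2 from chr10:27616943-27617192 and Lama5 from chr2:180225860-180226109. Capitals mark matches, on either strand, to the GC box GGGCGG, the E2-box CAGGTG, the AP-1 motif TGANTCA or the TATA box TATAAA.
Lama2: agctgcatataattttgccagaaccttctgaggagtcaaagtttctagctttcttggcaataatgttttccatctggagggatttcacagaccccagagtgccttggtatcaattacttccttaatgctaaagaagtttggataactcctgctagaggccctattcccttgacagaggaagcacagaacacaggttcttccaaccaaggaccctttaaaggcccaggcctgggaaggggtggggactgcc
Lama5: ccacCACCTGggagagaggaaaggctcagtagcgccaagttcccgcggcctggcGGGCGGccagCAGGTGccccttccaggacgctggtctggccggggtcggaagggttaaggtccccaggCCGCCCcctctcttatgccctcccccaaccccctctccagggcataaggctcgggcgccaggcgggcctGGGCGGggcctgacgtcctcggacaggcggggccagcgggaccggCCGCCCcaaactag
The Lama5 window held 4 GC boxes, 2 E2-boxes and 19 CpG dinucleotides, and the Lama2 window held none of the 4 motifs and 0 CpG dinucleotides. The median over all 32851 windows of this length was 6 CpG dinucleotides, with quartiles of 2 and 16. A GC box stood in 9 of the 26 windows of these genes, against 32.7% of all windows. An E2-box stood in 8 of the 26, against 17.2% of all windows, an AP-1 motif in 1, against 6.75%, and a TATA box in 0, against 12.4%. A match is a run of letters and not a binding site.

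Between genes, levels were compared in the authors' RPKM, which divides reads by exon length. RPKM are not TMM-scaled, so a difference between the lines can differ in size between RPKM and CPM. The log2 ratio of the untreated lines moved between RPKM and CPM by more than the library spread for 13 genes and by less for 11. Its sign did not change for any of them. The tests of the lines given further on use the TMM scale. Itgb1, the beta chain that pairs with the most alpha chains, had the highest RPKM of the 8 beta chains in every library. It stood at 296 ± 3.45 RPKM in EpH4-AS with PM2.5, 265 ± 0.721 in EpH4-AS untreated, 168 ± 2.11 in EpH4 with PM2.5 and 172 ± 8.51 in EpH4 untreated (SD, n = 2). Itgb5, which pairs with alpha v and binds vitronectin, held rank 2 in every library, at 159 ± 10.6 and 161 ± 4.17 RPKM in EpH4-AS with PM2.5 and untreated, and at 37.4 ± 3.63 and 43.4 ± 3.45 RPKM in EpH4 with PM2.5 and untreated (SD, n = 2). Itgb4 held rank 3 in both EpH4-AS groups and in EpH4 with PM2.5. Its rank in untreated EpH4 was 5, at 1.77 ± 0.157 RPKM, below Itgb7 at 8.92 ± 1.17 and Itgb2 at 5.64 ± 0.121 RPKM (SD, n = 2). No neighbours in that order of the first 5 beta chains overlapped in untreated EpH4.

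The order of the alpha chains differed between the lines. In EpH4-AS the fibronectin receptor chain Itga5 led with 74.0 ± 0.499 RPKM with PM2.5 and 80.3 ± 1.05 RPKM untreated, 53.5% and 54.5% of the summed RPKM of all alpha chains (SD, n = 2). Itgav, the alpha v chain of RGD receptors, and Itga3, a laminin receptor chain, followed at 28.7 ± 1.65 and 29.2 ± 1.20 RPKM in EpH4-AS with PM2.5, where their libraries overlapped. In EpH4 the 3 stood close together, with Itgav at 41.5 ± 1.40, Itga5 at 38.1 ± 4.17 and Itga3 at 37.4 ± 3.20 RPKM with PM2.5, and no pair of neighbours apart (SD, n = 2). The untreated EpH4 spheroids had Itgav at 42.7 ± 3.29, Itga3 at 35.4 ± 2.60 and Itga5 at 33.3 ± 1.90 RPKM, and Itgav lay above the other two in both libraries. Rank 4 in both EpH4 groups was Itga6, at 8.18 ± 0.192 RPKM with PM2.5 and 7.60 ± 0.448 untreated (SD, n = 2). In EpH4-AS rank 4 was Itga7, a laminin receptor chain known from muscle, at 4.04 ± 0.0989 RPKM with PM2.5 and 3.66 ± 0.364 untreated.

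**Figure D1:**
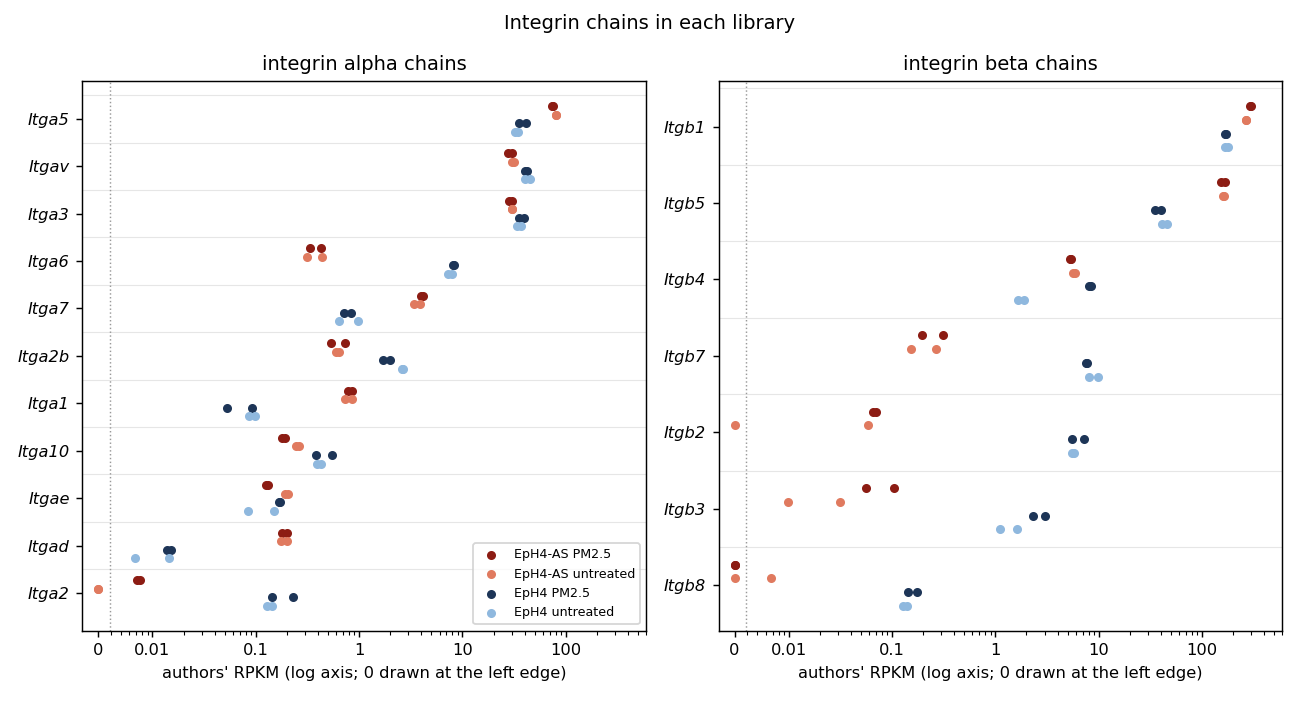
Authors' RPKM on a log axis for the 11 alpha chains (left) and 7 beta chains (right) past the filter, with 1 point per library in each of the 4 groups and values of 0 drawn at the left edge. Itgb1 lies at 166 to 299 RPKM in all 8 libraries, while Itga6, Itgb2, Itgb3, Itgb7 and Itgb8 lie lower in the EpH4-AS libraries than in the EpH4 libraries.

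Among the ligands, Lama5, an alpha chain found widely in adult basement membranes, led the laminin alpha chains in every library. All 5 alpha chains summed to 173 ± 8.89 RPKM in EpH4-AS with PM2.5 and 195 ± 1.69 RPKM in EpH4-AS untreated, against 10.9 ± 0.110 RPKM in EpH4 with PM2.5 and 7.66 ± 0.231 RPKM in EpH4 untreated (SD, n = 2). Lama5 made up 77.0% and 77.4% of the alpha chain sum in EpH4-AS with PM2.5 and untreated, and 99.1% and 98.6% in EpH4 with PM2.5 and untreated. Most of the rest in EpH4-AS was Lama2, the alpha chain of muscle and nerve basement membranes, at 19.9% and 20.3%. Lama2 stood at 0.259 and 0.258 of the RPKM of Lama5 in the EpH4-AS libraries with PM2.5, and at 0.262 in each untreated EpH4-AS library.

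Lamb1 and Lamc1, the beta and gamma chains shared by the most laminins, had high levels in both lines. Lamb1 made up 86.1% and 88.0% of the beta chain sum in EpH4-AS with PM2.5 and untreated, and 84.2% and 82.2% in EpH4 with PM2.5 and untreated. Lamc1, a gamma chain, stood at 101 ± 0.659 RPKM in EpH4-AS with PM2.5 and 109 ± 0.849 RPKM in EpH4-AS untreated, against 43.6 ± 3.90 RPKM in EpH4 with PM2.5 and 37.7 ± 1.02 RPKM in EpH4 untreated (SD, n = 2). Lama1 and Lama4 stayed at 0 to 5 counts per library, and Lamc3 had 0 counts in the 4 EpH4-AS libraries and 2 to 7 counts in the 4 EpH4 libraries.

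**Figure D2:**
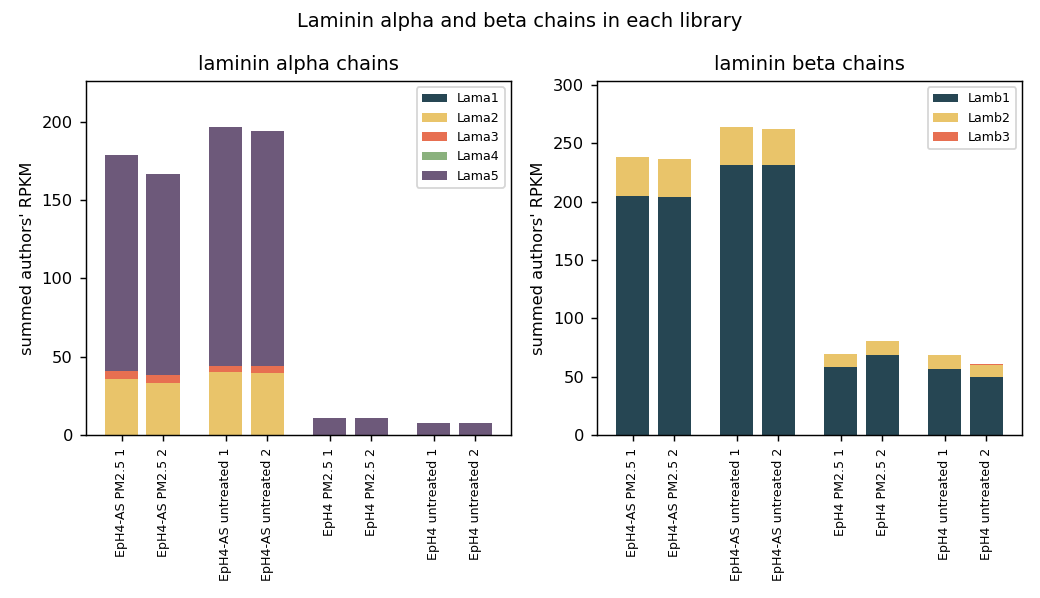
Authors' RPKM of the laminin alpha and beta chains stacked in each of the 8 libraries, numbered 1 and 2 within a group. The alpha chain sums are 166 to 196 RPKM in the EpH4-AS libraries and 7.496 to 10.97 RPKM in the EpH4 libraries, and Lama2 is a visible part of the bar in EpH4-AS but not in EpH4.

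The first comparison was EpH4 with PM2.5 against EpH4 untreated. Itgb4, the beta 4 chain of the hemidesmosome receptor (ENSMUSG00000020758, chromosome 11, 115865535 to 115899238, GRCm39), had 63.2 and 64.4 CPM in the EpH4 libraries with PM2.5, against 14.3 and 12.9 CPM in the untreated EpH4 libraries. The exposed libraries lay far above the untreated ones, and the group means were 63.8 ± 0.815 and 13.6 ± 0.989 CPM (SD, n = 2). This was a 4.67-fold rise, with a log2 fold change of 2.22 ± 0.07 (SE) and an adjusted p of 2.42e-10 by edgeR's quasi-likelihood test with Benjamini-Hochberg adjustment over all genes. The share of mitochondrially encoded transcripts was also higher in the exposed EpH4 libraries, and in a fit without those genes the log2 fold change of Itgb4 was 2.22. That fit only drops those genes, so it cannot tell whether the share and Itgb4 are linked, which was not tested. In bulk RNA, more RNA per cell and more cells of a kind that carries it cannot be told apart. Of the 25 tested genes, Itgb4 alone changed 2-fold or more past the threshold in this comparison, where 2.81% of all genes tested did.

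The named partners of Itgb4 did not pass the test. Itga6, its alpha chain (chromosome 2, 71575960 to 71688760), had 56.4 and 57.5 CPM in EpH4 with PM2.5, against 54.6 and 51.4 CPM in untreated EpH4 (log2 0.10 ± 0.07, adjusted p = 0.326). The exposed libraries were slightly above the untreated ones, a difference that did not pass the test. Per length, Itgb4 stood at 1.01 of the RPKM of Itga6 in each EpH4 library with PM2.5, against 0.237 and 0.227 in the untreated EpH4 libraries. The ligand chains Lama3 and Lamb3 had few counts in EpH4. Lama3 (chromosome 18, 12466876 to 12716070) had 26 and 30 counts with PM2.5 against 32 and 32 untreated (log2 -0.13 ± 0.23, adjusted p = 0.755). Lamb3 (chromosome 1, 192890007 to 193026186) had 24 and 33 counts with PM2.5 against 39 and 21 untreated (log2 -0.01 ± 0.36, adjusted p = 1). In CPM the groups of both chains overlapped, with Lama3 at 0.991 and 1.23 CPM with PM2.5 against 1.16 and 1.27 CPM untreated.

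**Figure D3:**
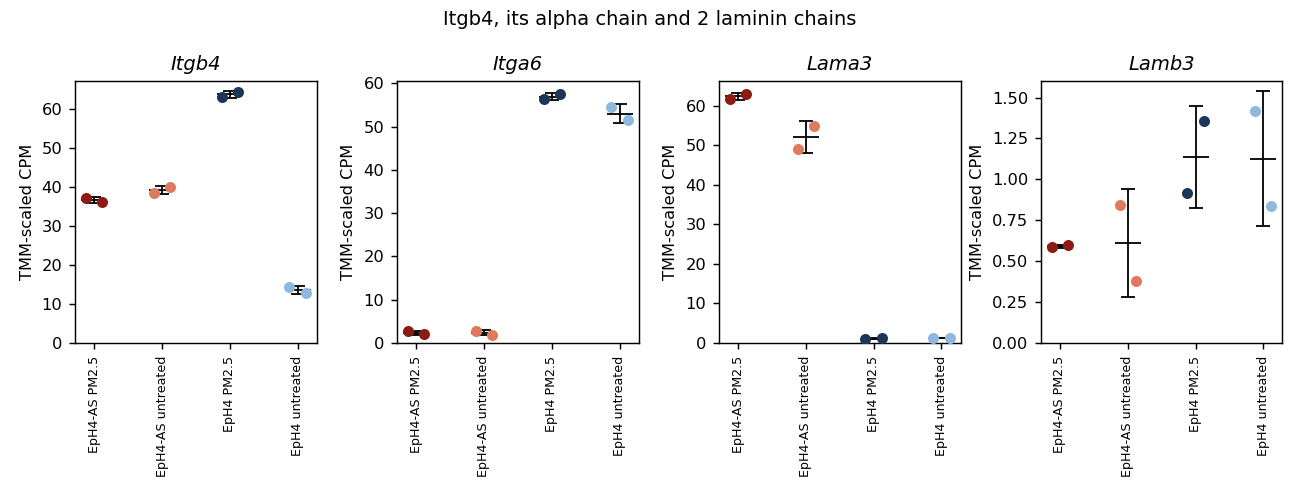
TMM-scaled CPM of Itgb4, its alpha chain Itga6 and the laminin chains Lama3 and Lamb3, with 1 point per library, the bar at the group mean and whiskers of 1 SD (n = 2), each panel on its own axis from 0. Itgb4 stands at 63.2 and 64.4 CPM in EpH4 with PM2.5 and at 12.9 and 14.3 CPM in EpH4 untreated, while in EpH4-AS the exposed and untreated libraries lie between 36.1 and 39.9 CPM.

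Of the 25 genes tested, 6 were called higher and 2 lower in EpH4 with PM2.5 than in EpH4 untreated, where 14.3% of all 13716 genes tested were called higher and 12.9% lower. The median log2 fold change was 0.17 over the 25 genes and 0.0044 over all genes tested. Beside Itgb4, the genes called higher were Lama5, Lamb1, Lamc1, Itgb3 and Itga5, and those called lower were Itgb5 and Itga2b. The laminin chain Lama5 had 148.4 and 148.3 CPM with PM2.5 against 105 and 103 CPM untreated, a 1.43-fold rise (log2 0.51 ± 0.06, adjusted p = 4.13e-05). Itgb3, a beta chain of platelets that also pairs with alpha v, had 16.5 and 20.7 CPM with PM2.5 against 11.3 and 7.80 CPM untreated (log2 0.95 ± 0.16, adjusted p = 0.000696). Both Lama5 and Itgb3 were higher in each exposed library than in each untreated one. These 2 calls and that of Itgb4 held in all 18 alternative fits.

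The other 5 calls depended on single libraries. Lamb1, at 445 ± 48.8 CPM with PM2.5 against 376 ± 29.6 CPM untreated (log2 0.24 ± 0.07, adjusted p = 0.0225), was no longer called when any 1 of 4 libraries was left out, with adjusted p from 0.0536 to 0.255. Lamc1, at 401 ± 32.0 CPM with PM2.5 against 348 ± 3.61 CPM untreated (log2 0.20 ± 0.06, adjusted p = 0.0188), was lost in the same way with any of 4 libraries, at 0.0509 to 0.199. The 4 libraries were, for both genes, untreated EpH4 2, exposed EpH4 2 and the 2 untreated EpH4-AS libraries. Itga5 (log2 0.19 ± 0.06, adjusted p = 0.0406) was lost with any of 6 libraries, all but untreated EpH4 1 and exposed EpH4 1, at 0.0684 to 0.412. Among the genes called lower, Itgb5 (log2 -0.22 ± 0.07, adjusted p = 0.0293) was lost without untreated EpH4 1, exposed EpH4 1 or either untreated EpH4-AS library, at 0.0548 to 0.220. Itga2b, the alpha chain of the platelet fibrinogen receptor (log2 -0.52 ± 0.13, adjusted p = 0.00837), was lost without exposed EpH4 2, at 0.0901. The 5 platelet and megakaryocyte markers summed to 2.36 and 2.38 CPM in EpH4 with PM2.5 and to 2.29 and 3.70 CPM in untreated EpH4, and their part in the values of Itga2b and Itgb3 was not tested.

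Reads that the authors assigned to a gene but that lay outside its exons gave a second readout of the same genes. For Itgb4 they numbered 311 and 262 in EpH4 with PM2.5, against 181 and 186 in untreated EpH4. Scaled by the same library sizes as the CPM, this was 11.3 ± 0.765 with PM2.5 and 6.99 ± 0.578 untreated (SD, n = 2), so these reads were also more frequent in the exposed libraries, by less than the exon counts. Their share of the gene's reads was 15.8% and 14.3% with PM2.5, against 31.5% and 36.4% untreated. For Lama3 the reads outside exons numbered 115 and 99 in EpH4 with PM2.5 against 51 and 47 untreated. Its exon reads overlapped between the groups in CPM, as given above. Reads outside exons made up 3.39% to 3.59% of all gene reads in EpH4-AS libraries and 11.3% to 12.5% in EpH4 libraries.

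The second comparison was EpH4-AS with PM2.5 against EpH4-AS untreated. Of the 25 genes, 2 were called higher and 0 lower, where 6.39% of all genes tested were called higher and 4.75% lower. The median log2 fold change of the 25 was 0.0080, and 0.0025 over all genes tested. With the 2 genes at or under 3 counts in each group set to 0, the median of the 25 was 0. Before adjustment, 5 of the 25 had a p under 0.05. Itgb1 had 1240 and 1251 CPM with PM2.5 against 1096 and 1086 CPM untreated, a 1.14-fold rise (log2 0.19 ± 0.05, adjusted p = 0.0304). Lama3 had 61.7 and 62.9 CPM with PM2.5 against 49.1 and 54.9 CPM untreated, a 1.20-fold rise (log2 0.26 ± 0.07, adjusted p = 0.0318). Each exposed library lay above each untreated one for both genes. Neither call survived the omission of any 1 of the 4 EpH4-AS libraries, which gave adjusted p from 0.0997 to 0.200 for Itgb1 and from 0.0619 to 0.306 for Lama3.

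Itgb4, Itga6 and Lamb3 did not pass the test in EpH4-AS. Itgb4 had 37.3 and 36.1 CPM with PM2.5 against 38.5 and 39.9 CPM untreated (log2 -0.10 ± 0.07, adjusted p = 0.436). The exposed libraries were slightly below the untreated ones. Itga6 had 46 and 38 counts with PM2.5 against 45 and 30 untreated (log2 0.03 ± 0.22, adjusted p = 0.972). Lamb3 had 10 and 11 counts with PM2.5 against 14 and 6 untreated (log2 -0.06 ± 0.54, adjusted p = 0.980). Itga6 and Lamb3 overlapped between the groups.

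Whether the PM2.5 effect differed between the lines was tested with the interaction, the log2 effect in EpH4-AS minus that in EpH4. Of the 25 genes, 4 had a negative interaction past the threshold and 0 a positive one, where 6.49% of all genes tested were negative and 7.60% positive. For Itgb4 the difference was -2.32 ± 0.10 (adjusted p = 1.31e-08). Lama5 differed by -0.67 ± 0.08 (adjusted p = 0.000178), with effects of -0.16 in EpH4-AS and 0.51 in EpH4. Both calls held in all 15 alternative fits. Lamb1 differed by -0.39 ± 0.10 (adjusted p = 0.0201) and Lamc1 by -0.29 ± 0.08 (adjusted p = 0.0300). Leaving out exposed EpH4 2 or any of the 4 EpH4-AS libraries ended those 2 calls, with adjusted p from 0.0719 to 0.114 for Lamb1 and from 0.107 to 0.173 for Lamc1. The interaction was -0.07 ± 0.23 for Itga6 (adjusted p = 0.894), 0.40 ± 0.24 for Lama3 (0.337) and -0.05 ± 0.65 for Lamb3 (0.996).

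**Figure D4:**
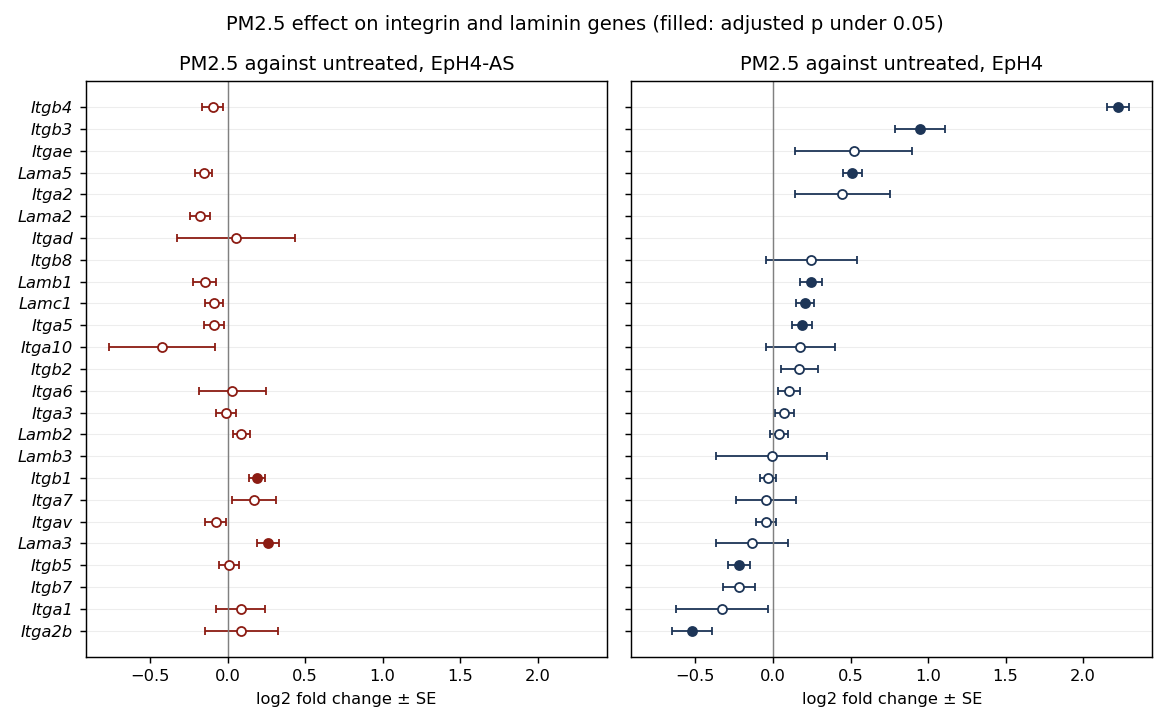
Log2 fold change with PM2.5 against untreated, with whiskers of 1 SE, in EpH4-AS (left, 18 genes) and EpH4 (right, 23 genes), for genes past the filter with at least 10 counts in every library of that line. Filled points have an adjusted p under 0.05. Itgb4 lies at -0.10 in EpH4-AS and at 2.22 in EpH4.

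EpH4-AS was next set against EpH4, untreated. Of the 25 genes, 13 were called higher and 10 lower in EpH4-AS, where 43.6% of all genes tested were called higher and 45.7% lower, so nearly all genes were called in this comparison. At 2-fold or more, 12 were higher and 7 lower, where 24.1% and 31.0% of all genes were. Of the laminin chains tested, 6 of 7 were higher and Lamb3 did not pass the test. The median log2 fold change of the 25 was 0.54, against -0.05 over all genes tested. That median is the value of Itgae, a gene with few counts that did not pass the test.

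The laminin alpha chains differed most among the ligands. Lama2 (ENSMUSG00000019899, chromosome 10, 26856032 to 27495754) had 7108 and 6559 counts in untreated EpH4-AS, against 3 and 0 in untreated EpH4. The ratio of the summed counts, scaled to library size, was 7398, with an exact 95% counting interval of 2531 to 35880. Lama5 (chromosome 2, 179818166 to 179867652) had 1842 and 1790 CPM in EpH4-AS against 105 and 103 CPM in EpH4, 17.5-fold higher (log2 4.13 ± 0.06, adjusted p = 3.56e-16). Lama3 had 49.1 and 54.9 CPM in EpH4-AS against 1.16 and 1.27 CPM in EpH4, 42.6-fold higher (log2 5.41 ± 0.12, adjusted p = 7.88e-15). With 32 and 32 counts of Lama3 in untreated EpH4, its SE is smaller than counting error. All 3 alpha chains were thus many-fold above EpH4 in each EpH4-AS library. Lamb1 (log2 1.93 ± 0.07), Lamc1 (1.34 ± 0.06) and Lamb2 (1.29 ± 0.06), a beta chain of muscle and kidney basement membranes, were higher by 3.804-fold, 2.53-fold and 2.44-fold.

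Lamb3, the beta chain that assembles with Lama3, did not pass the test. It had 14 and 6 counts in EpH4-AS against 39 and 21 in EpH4 (log2 -0.88 ± 0.45, adjusted p = 0.0780), with overlapping CPM. It passed the threshold without untreated EpH4-AS 1 or untreated EpH4 2, at 0.0235 as the lowest of 17 alternative fits. The gene Hsd11b1 lies inside the Lamb3 locus on the other strand and had a mean of 24.1 counts per library, and the strand setting of the counting is not given in the sources used here.

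The receptor chains split between the lines. Itgb4 had 38.5 and 39.9 CPM in untreated EpH4-AS against 14.3 and 12.9 CPM in untreated EpH4, 2.87-fold higher (log2 1.52 ± 0.07, adjusted p = 4.28e-11). Its alpha chain Itga6 had 45 and 30 counts in EpH4-AS against 1502 and 1293 in EpH4, 22.9-fold lower (log2 -4.52 ± 0.12, adjusted p = 6.66e-14). At 45 and 30 counts, the SE of Itga6 is smaller than counting error. Relative to EpH4, untreated EpH4-AS thus had more RNA of the beta 4 chain and less of the alpha 6 chain. Per length, Itgb4 was at 12.8 and 19.0 times the RPKM of Itga6 in the untreated EpH4-AS libraries, against 0.237 and 0.227 times in the untreated EpH4 libraries. Itgb5 was 3.25-fold higher, with 571 and 584 CPM in EpH4-AS against 186 and 170 CPM in EpH4 (log2 1.70 ± 0.07, adjusted p = 4.86e-12), and Itga5 was 2.10-fold higher (1.07 ± 0.06, 4.29e-10).

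Of the remaining alpha chains, Itga1, a collagen receptor chain, had 141 and 155 counts in untreated EpH4-AS against 31 and 33 in EpH4 (log2 2.90 ± 0.21, adjusted p = 3.94e-09). The gene Pelo lies inside the Itga1 locus on the same strand, with a mean of 439.5 counts per library, so reads of the pair may be hard to tell apart. Itga7 had 17.9 and 15.4 CPM in EpH4-AS against 3.27 and 5.09 CPM in EpH4 (4.01-fold, adjusted p = 1.94e-08). Itgad, a leukocyte chain, had 29 counts over both EpH4-AS libraries against 3 over both EpH4 libraries, a ratio of 15.7 with an exact 95% counting interval of 4.87 to 80.5, and Cox6a2 lies inside its locus on the other strand. Itga2, another collagen receptor chain, had 0 counts in untreated EpH4-AS against 62 over both EpH4 libraries, at least 12.7-fold lower against 3 counts over the group. Itga2b was 4.94-fold lower, with 2.17 and 2.28 CPM in EpH4-AS against 10.8 and 11.3 CPM in EpH4 (log2 -2.31 ± 0.17, adjusted p = 7.33e-09). The 5 platelet and megakaryocyte markers summed to 0.602 and 0.190 CPM in untreated EpH4-AS against 2.29 and 3.70 CPM in untreated EpH4, and their part in the line differences of Itga2b and Itgb3 was not tested. Below 2-fold, Itgb1 was called higher (log2 0.43 ± 0.05), and Itgav (-0.67 ± 0.07), Itga3 (-0.43 ± 0.06) and the cartilage collagen receptor chain Itga10 (-0.87 ± 0.27) were called lower. Itgae did not pass the test, at 13 and 13 counts in EpH4-AS against 19 and 10 in EpH4.

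Of the beta chains, 4 were lower in EpH4-AS by 2-fold or more. Itgb7, which pairs with alpha 4 or alpha E on lymphocytes, had 13 and 7 counts in untreated EpH4-AS against 733 and 826 in untreated EpH4, 47.7-fold lower (log2 -5.58 ± 0.21, adjusted p = 2.36e-12). Itgb2, the beta chain of leukocyte integrins, had 0 and 3 counts in EpH4-AS against 575 and 522 in EpH4, which was 225-fold above EpH4-AS with an exact 95% counting interval of 76.8 to 1093.5. Both chains thus had at least 522 counts in each untreated EpH4 library and at most 13 in each untreated EpH4-AS library. Itgb3 had 1 and 3 counts in EpH4-AS against 312 and 196 in EpH4, 74.4-fold lower (log2 -6.22 ± 0.44, adjusted p = 3.65e-09). At 13 and 7 counts of Itgb7 and 1 and 3 counts of Itgb3 in EpH4-AS, their SEs are smaller than counting error. Itgb8, which pairs with alpha v and is known for activating TGF-beta, had 1 count over both EpH4-AS libraries against 71 over both EpH4 libraries, which was 43.7-fold above EpH4-AS with an interval of 7.60 to 1751.

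The alpha chains with which the leukocyte beta chains pair had few counts in both lines. Itga4 had 0 counts in all libraries. Itgae, a partner of Itgb7, had 9 to 13 counts per library in EpH4-AS and 10 to 21 in EpH4, and Itgad, a partner of Itgb2, had 14 to 18 counts per library in EpH4-AS and 1 to 2 in EpH4. Itgal, Itgam and Itgax had 0 to 2 counts in each EpH4-AS library, and in EpH4 they had 2 to 19 counts per library with PM2.5 and 0 to 5 untreated. Of the 10 leukocyte markers, Cd3e had 0 counts in every library, Ptprc, Tyrobp and Csf1r stood below 0.3 CPM, and the sum was 38.8 to 42.2 CPM in EpH4-AS and 177 to 226 CPM in EpH4. Most of that sum was Cd68, a lysosomal protein of macrophages that other cells also express, at 37.5 to 41.2 CPM in EpH4-AS and 172 to 219 CPM in EpH4. Lyz2 stood at 0.662 to 1.20 CPM in EpH4-AS and 3.02 to 4.85 CPM in EpH4, Laptm5 at 0 to 0.117 and 0.762 to 1.13 CPM, and Adgre1 at 0 to 0.0584 and 0.398 to 0.991 CPM. These 4 markers were higher in the line with the higher Itgb2 and Itgb7, and their part in those values was not tested.

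With PM2.5, EpH4-AS differed from EpH4 as follows. Of the 25 genes, 12 were called higher and 11 lower in EpH4-AS, where 43.5% of all genes tested were called higher and 45.5% lower. At 2-fold or more, 10 were higher and 8 lower, where 23.4% and 30.5% of all genes were. The median log2 fold change of the 25 was -0.52, the value of Itga3, against -0.04 over all genes tested. Its sign differs from that of the median between the untreated lines, but only Itgb4 and the uncalled Itgae changed sign. The medians therefore do not show that the genes reversed as a set. Itgb4 had the opposite sign to that between the untreated lines, with 37.3 and 36.1 CPM in EpH4-AS against 63.2 and 64.4 CPM in EpH4, 1.74-fold lower (log2 -0.80 ± 0.06, adjusted p = 1.67e-08). Both EpH4-AS libraries were below both EpH4 libraries with PM2.5, and above both without it. The 2 comparisons of lines share no library, but the same fit to all 8 libraries supplied the spread for both tests.

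Itga6 and Lama3 kept the signs they had between the untreated lines. Itga6 had 46 and 38 counts in EpH4-AS against 1480 and 1399 in EpH4 (log2 -4.59 ± 0.12, adjusted p = 4.07e-14). Lama3 had 61.7 and 62.9 CPM in EpH4-AS against 0.991 and 1.23 CPM in EpH4 (log2 5.81 ± 0.12, adjusted p = 4.55e-15). Exposed EpH4-AS thus again had little Itga6 and much Lama3 RNA beside EpH4. With 46 and 38 counts of Itga6 in EpH4-AS, and 26 and 30 of Lama3 in EpH4, both SEs are smaller than counting error. Lamb3 had 10 and 11 counts in EpH4-AS against 24 and 33 in EpH4 (log2 -0.93 ± 0.44, adjusted p = 0.0616), and it passed the threshold in 5 of 17 alternative fits, 3 of them without untreated EpH4 1, untreated EpH4 2 or exposed EpH4 1, with a lowest adjusted p of 0.0316.

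The other genes past 2-fold kept their sign between the exposed lines. Lama2 had 6674 and 6574 counts in EpH4-AS against 1 and 3 in EpH4, at 389 and 357 CPM against 0.0381 and 0.123 CPM (log2 12.10 ± 0.16, adjusted p = 1.75e-16). With 1 and 3 counts in EpH4, that SE is smaller than counting error, and the size of the fold is uncertain. Lama5 was 10.99-fold higher, with 1698 and 1563 CPM in EpH4-AS against 148.4 and 148.3 CPM in EpH4 (log2 3.46 ± 0.06, adjusted p = 1.29e-15). The fold of Lama5 was smaller than between the untreated lines, the difference given above as its interaction. Itgb7 (log2 -5.06 ± 0.20), Itgb2 (-6.67 ± 0.29) and Itgb3 (-5.18 ± 0.30) were lower. In exposed EpH4-AS they had 10 and 17, 4 and 4, and 6 and 12 counts, so these SEs understate counting error. Itgb8 had 0 counts in EpH4-AS against 81 over both EpH4 libraries, at least 19.0-fold lower against 3 counts over the group. Itgb5 (log2 1.93 ± 0.07), Itga1 (3.31 ± 0.22) and Itga7 (2.21 ± 0.16) were higher.

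**Figure D5:**
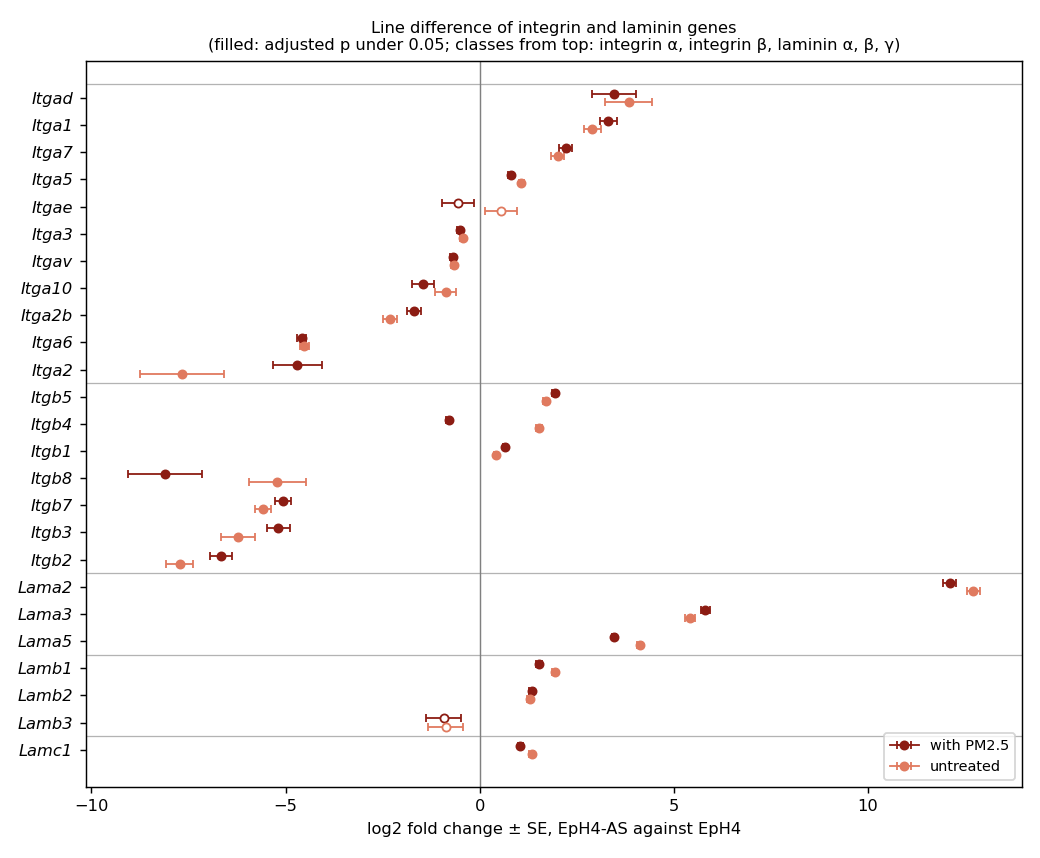
Log2 fold change of EpH4-AS against EpH4 with whiskers of 1 SE, with PM2.5 and untreated, for the 25 genes past the filter, ordered within each class of chain. Filled points have an adjusted p under 0.05, fitted values of genes with 0 to 3 counts in a group depend on the prior count, and Itgb4 lies at -0.80 with PM2.5 and at 1.52 untreated. For genes with few counts in a group, the whiskers can be shorter than counting error.

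Genes that work with these chains were counted over 5 lists drawn up with earlier results of these data known. Of 8 tested hemidesmosome genes, 3 were called higher and 1 lower in EpH4 with PM2.5 than in EpH4 untreated, beside 14.3% and 12.9% of all genes tested. Krt14, a basal keratin, had 8.59 ± 0.404 CPM with PM2.5 against 3.17 ± 0.202 CPM untreated (log2 1.44 ± 0.16, adjusted p = 3.66e-05), and Plec, the linker between beta 4 and keratin, had 349 ± 15.2 CPM against 284 ± 25.9 CPM (log2 0.29 ± 0.06, adjusted p = 0.00343) (SD, n = 2). Cd151, a tetraspanin partner of laminin-binding integrins, was higher (log2 0.17 ± 0.06) and Cd82, another tetraspanin, lower (-0.22 ± 0.06), and these calls held in 8 and 14 of 18 alternative fits. Cd82 was lost without untreated EpH4 2 or exposed EpH4 2 (adjusted p 0.0850 and 0.0893), and Cd151 without any 1 of 6 libraries (0.0696 to 0.338). In EpH4-AS with PM2.5 against untreated, where 6.39% of all genes tested were higher and 4.75% lower, 1 of the 8 was higher (Cd151, log2 0.22 ± 0.06, adjusted p = 0.0266) and 1 lower (Cd9, -0.36 ± 0.10, adjusted p = 0.0305). Leaving out any 1 of the 4 EpH4-AS libraries ended both calls, with adjusted p from 0.0992 to 0.162 for Cd151 and from 0.146 to 0.195 for Cd9. Against untreated EpH4, Plec was higher in untreated EpH4-AS (log2 1.28 ± 0.06), and the tetraspanins Cd9 (-4.35 ± 0.07) and Cd82 (-3.88 ± 0.09) were lower.

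Of 14 basement membrane partners of laminin, 7 were called higher and 1 lower in EpH4 with PM2.5 than untreated, beside 14.3% and 12.9% of all genes tested. Their median log2 fold change was 0.23, against 0.0044 over all genes tested. Pxdn, the peroxidase that cross-links collagen IV (log2 0.55 ± 0.06), Fbln2, a fibulin (0.48 ± 0.08, not called by DESeq2 at adjusted p = 0.0780), and Sparc, a collagen-binding protein (0.32 ± 0.05), were higher, and Nid1, which links laminin to collagen IV (-0.46 ± 0.06), was lower. In EpH4-AS the directions of Nid1 and Pxdn were the opposite, with Nid1 higher (log2 0.25 ± 0.05) and Pxdn lower (-0.24 ± 0.06). Those 2 calls ended without any 1 of the 4 EpH4-AS libraries, with adjusted p from 0.0596 to 0.105 for Nid1 and from 0.132 to 0.211 for Pxdn. The interaction was 0.71 ± 0.08 for Nid1 (adjusted p = 8.19e-05) and -0.79 ± 0.09 for Pxdn (adjusted p = 0.000111). Over the 14, 1 was higher and 2 lower in EpH4-AS with PM2.5, beside 6.39% and 4.75% of all genes. Between the untreated lines, 6 of the 14 were higher and 8 lower in EpH4-AS, beside 43.6% and 45.7% of all genes, among them Ntn4, a netrin with a laminin-like domain, at 64.5 ± 0.0247 CPM against 0.961 ± 0.234 CPM in EpH4, and the collagen IV chain Col4a1 at 33.5 ± 4.83 CPM against 613 ± 5.16 CPM (SD, n = 2).

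Of 8 tested laminin receptors that are not integrins, 1 was called higher and 3 lower in EpH4 with PM2.5, beside 14.3% and 12.9% of all genes tested, and 1 higher and 4 lower in EpH4-AS with PM2.5, beside 6.39% and 4.75%. Between the untreated lines, 3 of the 8 were higher and 5 lower in EpH4-AS, beside 43.6% and 45.7% of all genes tested. With PM2.5, Rpsa was lower in EpH4 (log2 -0.29 ± 0.06) and higher in EpH4-AS (0.33 ± 0.06), with an interaction of 0.61 ± 0.08 (adjusted p = 0.000369). The opposite held for the syndecan Sdc1, higher in EpH4 (log2 0.48 ± 0.10) and lower in EpH4-AS (-0.47 ± 0.09), with an interaction of -0.95 ± 0.14 (adjusted p = 0.000491). The EpH4-AS call ended without any 1 of the 4 EpH4-AS libraries, with adjusted p from 0.0533 to 0.0974. Of 31 tested integrin activators and adhesion plaque genes, 9 were higher and 6 lower in EpH4 with PM2.5, beside 14.3% and 12.9% of all genes, and 2 higher and 3 lower in EpH4-AS with PM2.5, near the 6.39% and 4.75% of all genes. The tensin Tns1 (log2 0.68 ± 0.08) and the kinase Ptk2b (0.86 ± 0.11) were higher and Zyx, zyxin of focal adhesions (-0.31 ± 0.05), lower in EpH4. In EpH4-AS the kindlin Fermt2, which activates integrins (log2 0.39 ± 0.05), was higher. The talin Tln2 (-0.39 ± 0.06), Vcl (-0.23 ± 0.06) and Nedd9 (-0.90 ± 0.25) were lower in EpH4-AS. The calls of Fermt2 and Tln2 held in all 17 alternative fits, those of Vcl and Nedd9 in 13 and 12.

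Of 12 tested matrix and cell surface ligands of other integrins, 4 were called higher and 2 lower in EpH4 with PM2.5, beside 14.3% and 12.9% of all genes tested, and 4 higher and 3 lower in EpH4-AS with PM2.5, beside 6.39% and 4.75%. Vcam1, a ligand of the alpha 4 chain, was higher in both, with log2 0.82 ± 0.11 in EpH4 and 1.27 ± 0.30 in EpH4-AS, where the call ended without untreated EpH4-AS 1 or 2 or exposed EpH4-AS 2 (adjusted p 0.159, 0.0569 and 0.157). Icam1, a ligand of the leukocyte beta 2 integrins, had 127 ± 1.37 CPM in EpH4-AS with PM2.5 against 61.9 ± 4.13 CPM untreated (log2 1.04 ± 0.06, adjusted p = 2.31e-07). Fn1, fibronectin, was lower in EpH4-AS with PM2.5 than untreated (log2 -0.57 ± 0.07, adjusted p = 0.000141). Between the untreated lines Fn1 was lower in EpH4-AS (log2 -1.88 ± 0.07), the line in which its receptor chain Itga5 was higher, and Spp1, osteopontin, a ligand of alpha v integrins, was lower as well (-5.60 ± 0.13). Between the untreated lines, 5 of the 12 were higher and 7 lower in EpH4-AS, beside 43.6% and 45.7% of all genes.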

How the data were processed

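Polyadenylated RNA was sequenced from 8 libraries, 2 in each of 4 groups, with stranded library preparation per the labels' protocols. The authors deposited raw counts, whole reads for each gene, with GRCm39 as the genome build per the submitters' processing notes. The RPKM values were made by the authors, per the file headers, from exon reads and gene length. That length is read here as the length of the exons, since the RPKM are too high for the whole locus. The same tables gave all reads of a gene, from which exon reads were subtracted to leave reads outside exons. The sources used here give neither the aligner nor the counting tool and its strand setting. Of 25413 genes, 13716 passed filterByExpr with 99.96% of counts. TMM scaling was followed by a quasi-likelihood fit of the 4 groups in edgeR 4.0.16 (R 4.3.3), with 4 residual degrees of freedom. The 5 contrasts were tested two-sided, and p-values were adjusted by Benjamini-Hochberg over all genes tested, with a threshold of 0.05. Standard errors were derived from the F statistic as the size of the log2 fold change divided by its square root. For genes with few counts in a group, an SE made this way can be smaller than counting error alone. A group with 0 counts was set against a floor of 3 counts over the group, and 1 to 3 counts were given as a ratio with an exact 95% interval, which like the floor covers counting error only. Alternatives used DESeq2 1.42.0 and limma 3.58.1 among others. The script was tested on simulated data.

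The genes and lists were chosen with earlier results of these data known. A further gene that the rule finds is not reported here and enters no count of these genes. The others were all accounted for. Itgb4, Itga6, Lama3 and Lamb3 were named in every comparison, others with statistics where the adjusted p was under 0.05, and of a pathway list up to 4 called genes with the smallest adjusted p. Itgae, Cox6a2, Hsd11b1 and Pelo are also named for levels, values or overlap. Promoter windows came from RefSeq on GRCm38.p6 and were not compared with coordinates on GRCm39.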

Additional observations from a re-analysis of the deposited data

Results flagged for a closer look

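The PM2.5 effect differed between the lines, by a test of the difference itself, for 4 of the 25 integrin and laminin genes tested. For Itgb4 the log2 effect was -0.10 in EpH4-AS and 2.22 in EpH4, a difference of -2.32 ± 0.10 (SE, adjusted p = 1.31e-08 by edgeR's quasi-likelihood test). For Lama5 it was -0.16 in EpH4-AS and 0.51 in EpH4, a difference of -0.67 ± 0.08 (adjusted p = 0.000178). For Lamb1 it was -0.15 in EpH4-AS and 0.24 in EpH4, a difference of -0.39 ± 0.10 (adjusted p = 0.0201). For Lamc1 it was -0.09 in EpH4-AS and 0.20 in EpH4, a difference of -0.29 ± 0.08 (adjusted p = 0.0300). Within EpH4-AS none of the 4 passed the threshold, with adjusted p = 0.436 for Itgb4, 0.0919 for Lama5, 0.218 for Lamb1 and 0.382 for Lamc1. The share of counts from mitochondrially encoded transcripts was 0.2697% and 0.302% in exposed EpH4-AS libraries and 0.219% and 0.246% in untreated ones. It was 4.23% and 5.03% in exposed EpH4 libraries and 2.72% and 2.21% in untreated ones.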

How the results depend on the processing

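Of the 25 integrin and laminin genes, the counts called between the lines stayed within 1.5 times of those reported in all alternatives run, at 13 higher and 10 to 11 lower untreated and at 12 higher and 11 to 12 lower with PM2.5 when 1 library was left out. The counts for PM2.5 were smaller and moved more. In EpH4, 1 gene was lower by DESeq2 and by limma-trend on log2(RPKM + 1), and 3 were higher and 1 lower in a fit to the 2 groups only. In EpH4-AS, 0 were higher and 1 lower with library totals and by limma-trend, 1 higher and 1 lower by DESeq2, and 3 lower without the filter or in a fit to the 2 groups only. In the interaction, 1 was positive by DESeq2 and 2 without the filter. Leaving out 1 library gave 3 to 6 higher and 1 to 2 lower in EpH4, 0 to 2 higher and 0 to 1 lower in EpH4-AS, and 0 to 1 positive and 2 to 5 negative in the interaction. The cause was not tested. Limma-trend on log2(RPKM + 1) understates the change of low genes by construction.

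The replicate numbers do not pair the samples by the labels, and deviations of same-numbered libraries correlated at -0.101 to 0.0646 over 6 pairs of groups. With a replicate block, 1 gene was higher in EpH4-AS with PM2.5. A crossed replicate block, chosen after seeing the data, gave 6 higher and 3 lower in EpH4. Fits without mitochondrially encoded genes and with thinned EpH4 libraries, also chosen after seeing the data, moved no such count by over 1.5 times.

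The 15 results that changed sign all belonged to genes that were not called. For Lamb3 in EpH4, near 0 in the reported fit, the log2 fold change was 0.0063 by DESeq2, 0.0025 by limma-trend, 0.014 with a replicate block and 0.0036 with the crossed block. Leaving out 1 library at a time gave -0.33 to 0.43 for Lamb3 and -0.29 to 0.020 for Lama3 in EpH4, -0.49 to 0.64 for Lamb3 and -0.18 to 0.33 for Itga6 in EpH4-AS, and -0.49 to 0.65 for Lamb3 and -0.28 to 0.23 for Itga6 in the interaction. Lamb3 had 6 to 39 counts per library, which limits what can be read from it.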
